A study of Mus musculus with 8 samples.

Results

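The 10 lung capillary endothelial genes described here were chosen by gene symbol: Pecam1, Cdh5, Kdr, Calcrl, Plvap, Tek, Tie1 and Vwf as general endothelial genes, and Car4 and Ednrb as genes of one kind of capillary cell. All 10 were found among the 22180 genes of the array that had a probe set with 1 annotated symbol, each by a single probe set, and all 10 lay above the level filter that left 13112 genes for testing. Expression was measured on a mouse array in isolated club cells (non-ciliated, secretory epithelium of the bronchioles) from Atgl KO/cTg mice (4 pools, 16 mice in all, 4 per pool, aged 38 to 46 weeks) and wt/cTg mice (4 pools, 14 mice in all, 3 or 4 per pool, aged 41 to 48 weeks). Adipose triglyceride lipase, ATGL, is the product of Pnpla2. Mice of both genotypes carry cTg, which the labels do not expand, and no source used here names the promoter that drives it. Mice were untreated and ate standard chow. The question put to these genes was whether endothelial transcripts differed between the genotypes, and whether Car4 and Ednrb went with the general endothelial genes.

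Endothelial cells line blood vessels, and in the lung they form the capillary mesh across which gas is exchanged. General capillary cells and aerocytes share this mesh. Aerocytes are large, thin cells that lie against the alveolar type 1 epithelium, and Car4 and Ednrb are among their best known markers. The general genes cover adhesion at cell contacts, growth factor receptors and secretion, and are used in mouse tissues to mark endothelium as a whole or a part of the vascular tree. They are not known as club cell markers, and which cells of the preparations gave their signal was not tested. In such bulk pools, fewer cells of a type and less RNA per cell cannot be told apart.

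The labels were checked first. Pnpla2 read 6.99, 7.16, 7.09 and 6.70 log2 units in the Atgl KO/cTg pools, against 8.70, 8.63, 8.62 and 8.86 in the wt/cTg pools, a difference of -1.72 (SE 0.11, limma adjusted p = 0.000116). The club cell marker Scgb1a1 averaged 12.92 ± 0.10 for the Atgl KO/cTg pools, against 12.99 ± 0.08 for the wt/cTg pools (SD, n = 4 each). This level lay near the highest signals of the arrays, so Scgb1a1 alone cannot show whether club cell content was equal. Of the 13 club cell markers tested, Scgb1a1 was 1 of 2 with a lower mean in Atgl KO/cTg. The other 11 had a higher mean there, and the median difference of all 13 was 0.16, with 0 called. By Xist, the transcript of the inactive X chromosome, a single library stood apart: wt/cTg replicate 4 read 3.75. The other pools read 9.34 to 10.67, and wt/cTg replicate 4 was the highest pool for the Y-linked genes Kdm5d, Eif2s3y and Uty. A sex score was taken as Xist less the mean of these Y-linked genes. It was 3.15 to 4.81 in Atgl KO/cTg, against 5.11 to 5.23 in wt/cTg replicates 1 to 3 and -3.24 in replicate 4. Genotype and the mix of sexes were therefore not fully separate in these pools. With the score in the fit, 9 genes and 0 members were called, and the 8 general members had a median of -0.24. The score rests largely on wt/cTg replicate 4, so this fit cannot separate sex from genotype or from that pool. Without that pool, and with no score in the fit, the general median was -0.16. On the first principal component of the genes tested, which held 29.3% of their variance, replicate 2 of Atgl KO/cTg lay at one end and replicate 4 of wt/cTg at the other. The wt/cTg pool was the highest of all 8 for 6 members and the Atgl KO/cTg pool the lowest for 5, and the main counts and the lists whose sign or call rests on these pools are also given without them.

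The promoters of Car4 and Calcrl are shown because, of the pairs of Car4 with a general member, this one gave the largest difference within pools. RefSeq's table (GRCm38.p6) held promoters of 6 of the 10 members, Kdr, Calcrl, Tek, Tie1, Car4 and Ednrb, as windows of 250 bases before to 50 after a start site. Capitals mark matches to AGGAAG or CGGAAG on either strand, the core letters bound by ETS factors, a family that includes the endothelial regulators ERG and FLI1. The Car4 window is chr11:84957504-84957803 on the + strand and the Calcrl window chr2:84425217-84425516 on the - strand.
Car4: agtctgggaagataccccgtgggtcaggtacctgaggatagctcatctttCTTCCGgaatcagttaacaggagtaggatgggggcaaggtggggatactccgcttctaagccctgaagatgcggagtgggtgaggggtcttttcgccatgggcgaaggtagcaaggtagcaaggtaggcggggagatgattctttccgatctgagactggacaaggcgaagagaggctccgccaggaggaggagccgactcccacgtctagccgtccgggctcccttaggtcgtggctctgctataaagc
Calcrl: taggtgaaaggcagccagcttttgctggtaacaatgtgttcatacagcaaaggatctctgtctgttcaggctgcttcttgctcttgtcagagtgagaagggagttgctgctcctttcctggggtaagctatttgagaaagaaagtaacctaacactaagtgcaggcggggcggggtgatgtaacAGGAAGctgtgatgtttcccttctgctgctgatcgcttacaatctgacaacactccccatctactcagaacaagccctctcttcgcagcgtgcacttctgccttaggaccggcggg
Car4 and Calcrl held 1 match each, at positions -200 and -66 from the start, and Tie1 held 3, while Kdr, Tek and Ednrb held 0. Of 27025 promoters of this length, one per gene, 46.4% held a match, so 3 of 6 windows is a share near the background. The GATA letters AGATAA or TGATAA were in the Tek window alone among the 6, and in 19.0% of all promoters.

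Across the members, 0 of 10 passed limma at an adjusted p of 0.05, where 0.0991% of all genes tested did (13 of 13112; 0.0153% higher and 0.0839% lower in Atgl KO/cTg). At an unadjusted p under 0.05 there were 2 members, Calcrl and Car4, with opposite signs, against 7.95% of all genes. Of the members, 7 lay below 0 and 3 above, and 52.2% of all genes lay below 0. The median difference of the 8 general members was -0.30 log2 units and that of all genes tested -0.01. The general median was -0.20 without replicate 2 of Atgl KO/cTg, -0.16 without replicate 4 of wt/cTg and -0.05 without both. Without both, Pecam1 was at -0.04, Cdh5 at -0.06, Tek at -0.04 and Plvap at -0.05, while Tie1 was at -0.19 and Car4 at 0.55. The groups overlapped for each of the 10, and 4.35% of all genes had groups that did not (1.74% higher and 2.62% lower in Atgl KO/cTg). The smallest limma adjusted p among the members was 0.496.

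**Figure D1:**
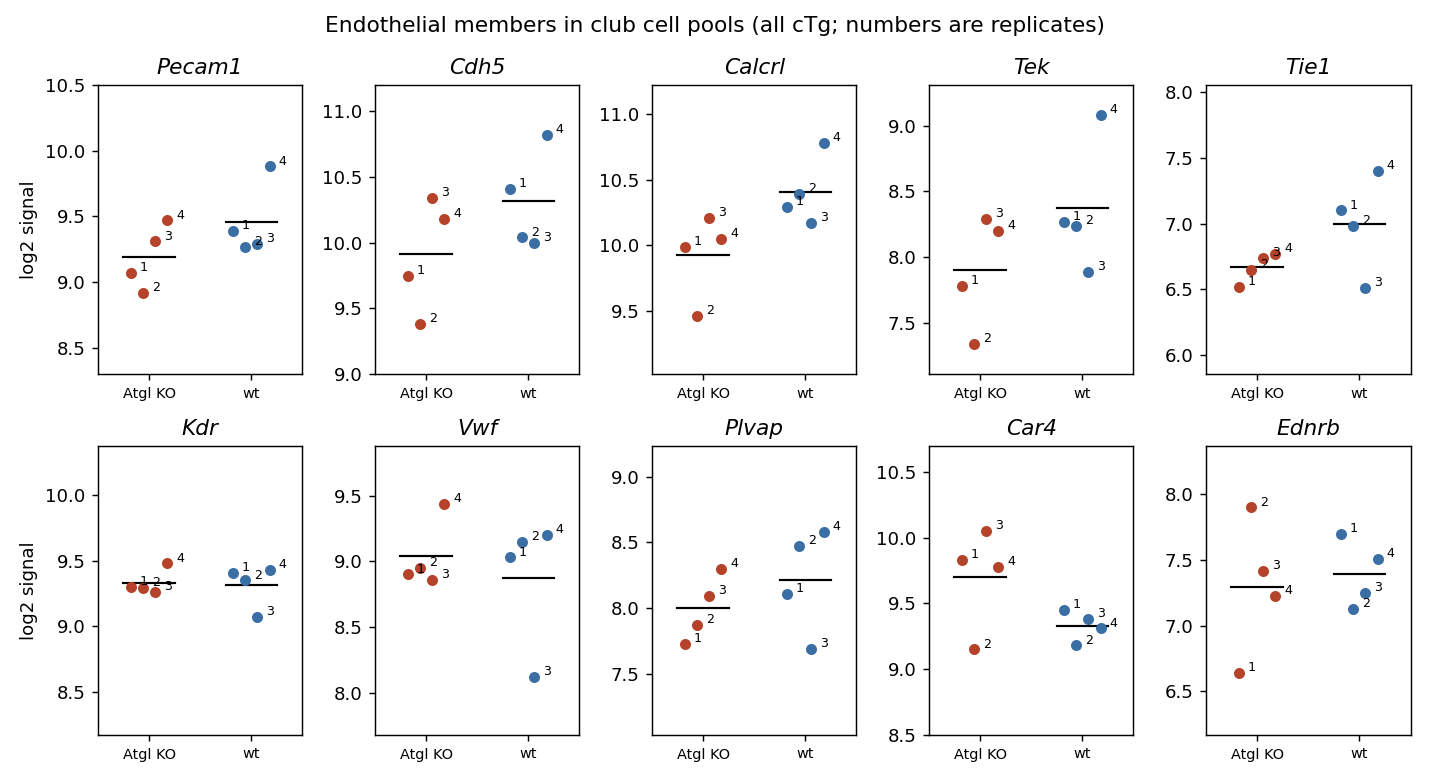
Log2 signal (y axis, the same span in each panel) of the 10 members in the Atgl KO/cTg pools (red, left) and wt/cTg pools (blue, right); numbers are replicates and bars are group means of 4 pools. Atgl KO/cTg replicate 2 is the lowest pool for Pecam1, Cdh5, Calcrl, Tek and Car4, wt/cTg replicate 4 is the highest for 6 of the 8 general members, and 3 of 4 Atgl KO/cTg pools lie above every wt/cTg pool for Car4.

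Pecam1 and Cdh5 encode adhesion proteins of endothelial cell contacts, and Cdh5, VE-cadherin, is the cadherin of endothelial adherens junctions. Pecam1 read 9.07, 8.92, 9.31 and 9.47 in Atgl KO/cTg, against 9.39, 9.27, 9.29 and 9.88 in wt/cTg. Cdh5 read 9.75, 9.38, 10.34 and 10.18 in Atgl KO/cTg, against 10.41, 10.04, 9.997 and 10.82 in wt/cTg. For both genes, replicates 1 and 2 of Atgl KO/cTg lay below all wt/cTg pools and replicates 3 and 4 lay among them. The difference was -0.27 (SE 0.15, limma adjusted p = 0.709) for Pecam1 and -0.40 (SE 0.22, limma adjusted p = 0.693) for Cdh5. Pecam1 protein is also carried by platelets and leukocytes.

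Kdr, Tek and Tie1 encode receptor tyrosine kinases: Kdr is VEGF receptor 2, Tek (TIE2) is the receptor of the angiopoietins, and Tie1 is its partner, for which no ligand of its own is firmly known. Tek read 7.78, 7.34, 8.29 and 8.20 in Atgl KO/cTg, against 8.27, 8.24, 7.89 and 9.08 in wt/cTg. Tek varied most among the general members, with the lowest value in Atgl KO/cTg replicate 2 and the highest in wt/cTg replicate 4, and gave -0.47 (SE 0.26, limma adjusted p = 0.693). Tie1 read 6.52, 6.65, 6.74 and 6.77 in Atgl KO/cTg, against 7.10, 6.98, 6.51 and 7.40 in wt/cTg. Its Atgl KO/cTg pools lay close together (SD 0.11) and below 3 of the 4 wt/cTg pools, with wt/cTg replicate 3 as low as the lowest of them, and the difference was -0.33 (SE 0.17, limma adjusted p = 0.66). Kdr read 9.30, 9.29, 9.26 and 9.48 in Atgl KO/cTg, against 9.41, 9.35, 9.07 and 9.43 in wt/cTg. The groups lay within nearly the same range, and the interval of the Kdr difference, -0.19 to 0.22 (95%, estimate 0.02), runs from 0.879 to 1.17 times the wt/cTg level.

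Calcrl, the receptor that forms the adrenomedullin receptor together with RAMP2, had the smallest p of the members. It read 9.99, 9.46, 10.21 and 10.05 in Atgl KO/cTg, against 10.29, 10.39, 10.17 and 10.78 in wt/cTg. The readings of 3 Atgl KO/cTg pools lay below every wt/cTg pool, and Atgl KO/cTg replicate 3 lay just above wt/cTg replicate 3. The difference was -0.48 (SE 0.16, 95% interval -0.84 to -0.12), a level of 0.717 of that in wt/cTg. It did not pass over all genes (limma adjusted p = 0.496) or in an exact two-sided permutation test (p = 0.0571, where 70 arrangements of 8 pools allow 0.0286 at the lowest). Without both end pools of the first principal component it was -0.20 (limma adjusted p = 0.887).

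Plvap encodes the protein of the diaphragms that span endothelial fenestrae and caveolae, and Vwf the clotting factor that endothelial cells of larger vessels store and platelets carry. Plvap read 7.73, 7.87, 8.09 and 8.30 in Atgl KO/cTg, against 8.11, 8.47, 7.69 and 8.58 in wt/cTg. Its groups spanned nearly the same range, with a difference of -0.21 (SE 0.19, limma adjusted p = 0.826). Vwf read 8.90, 8.95, 8.86 and 9.44 in Atgl KO/cTg, against 9.03, 9.15, 8.12 and 9.20 in wt/cTg. The Vwf difference of 0.16 (SE 0.22, limma adjusted p = 0.904) took its sign from wt/cTg replicate 3, and without that pool it was -0.09.

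Car4, a carbonic anhydrase anchored to the outer cell surface, was the member with the highest difference. It read 9.83, 9.15, 10.05 and 9.78 in Atgl KO/cTg, against 9.45, 9.18, 9.38 and 9.31 in wt/cTg. The readings of 3 Atgl KO/cTg pools lay above every wt/cTg pool, and Atgl KO/cTg replicate 2 lay below all of them. The difference was 0.37 (SE 0.16, 95% interval 0.02 to 0.72), or 1.29 times the wt/cTg level, with a limma adjusted p of 0.6 and an exact two-sided permutation p of 0.143. Without Atgl KO/cTg replicate 2 it was 0.56 (SE 0.09, limma adjusted p = 0.0715), which still missed the threshold, and without wt/cTg replicate 4 it was 0.37 (limma adjusted p = 0.803).

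Ednrb encodes endothelin receptor type B, which clears endothelin from the lung circulation and in endothelial cells evokes nitric oxide release. It read 6.64, 7.90, 7.42 and 7.23 in Atgl KO/cTg, against 7.70, 7.13, 7.25 and 7.51 in wt/cTg. The highest and the lowest of all 8 pools were both Atgl KO/cTg, replicates 2 and 1, and the wt/cTg pools lay between them. The difference was -0.10 (SE 0.23, 95% interval -0.61 to 0.40, limma adjusted p = 0.948). Car4 and Ednrb therefore did not share an order of pools: Atgl KO/cTg replicate 2 was the lowest pool for Car4 and the highest for Ednrb.

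**Figure D2:**
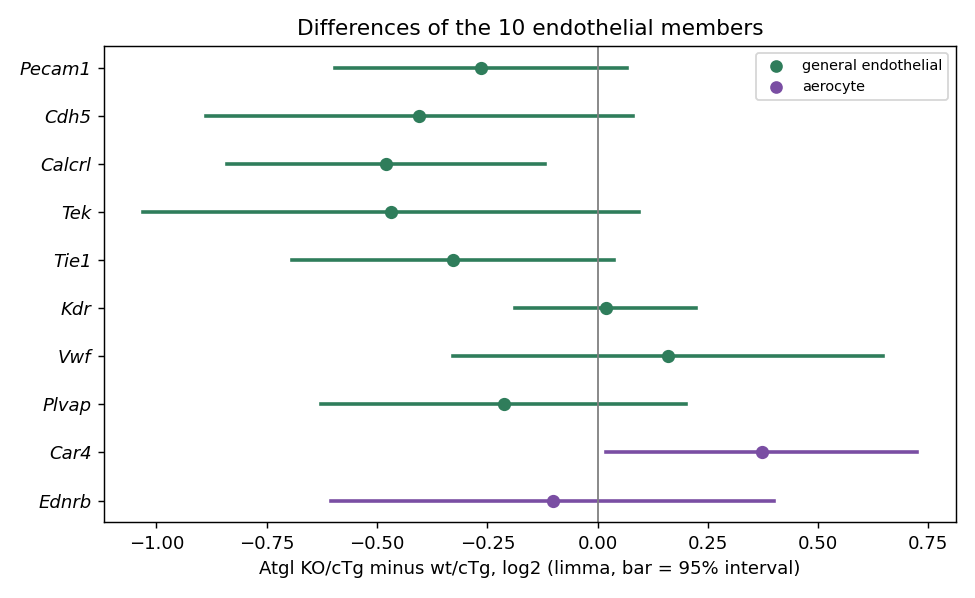
Difference of each member (x axis, Atgl KO/cTg minus wt/cTg, log2) with its 95% interval from limma over 4 pools per genotype; general endothelial members are green and aerocyte members purple. Calcrl at -0.48 and Car4 at 0.37 are the members whose intervals leave out 0, on opposite sides, and neither passed after adjustment over 13112 genes.

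Set against the general members pool by pool, Car4 had a higher mean in Atgl KO/cTg. This look at Car4 alone was added after the data were seen, and the planned contrast was the mean of Car4 and Ednrb. Each gene was centred on its mean over the 8 pools, and the mean of the 8 general members was taken off. Car4 then read 0.56, 0.02, 0.52 and 0.15 in Atgl KO/cTg, against -0.20, -0.45, 0.14 and -0.73 in wt/cTg. The means differed by 0.62 log2 units, and the groups overlapped only in that 0.02 in replicate 2 of Atgl KO/cTg lay below 0.14 in replicate 3 of wt/cTg. Of all genes tested, 1.65% were higher in Atgl KO/cTg on this scale with groups that did not overlap, 1.84% had a difference at least that of Car4 whether or not their groups overlapped, and 0.549% had both. With any 1 pool left out, the Car4 value ran from 0.48 (without wt/cTg replicate 4) to 0.77 (without wt/cTg replicate 3). The same quantity for Ednrb read -0.47, 0.94, 0.06 and -0.23 in Atgl KO/cTg, against 0.22, -0.33, 0.18 and -0.37 in wt/cTg, and the difference of 0.15 turned to -0.14 without Atgl KO/cTg replicate 2. For the mean of Car4 and Ednrb the difference was 0.38, with group SDs of 0.24 in Atgl KO/cTg, against 0.33 in wt/cTg. The groups overlapped, at -0.04 to 0.48 in Atgl KO/cTg, against -0.55 to 0.16 in wt/cTg. With any 1 pool left out, this difference ran from 0.26 (without wt/cTg replicate 4) to 0.50 (without wt/cTg replicate 3). No p is given for these values, since the members were chosen with results of these data known.

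Member by member, Car4 minus the general gene did not overlap between genotypes for 4 of 8 partners: Pecam1, Cdh5, Calcrl and Tek. Car4 minus Calcrl ran from -0.31 to -0.15 in Atgl KO/cTg, against -1.47 to -0.79 in wt/cTg, a difference of 0.85. Set against Calcrl in the same way, however, 18.9% of all genes tested were higher in Atgl KO/cTg with groups that did not overlap. That share was 3.86% against Pecam1, 1.04% against Cdh5 and 1.24% against Tek. Car4 minus Cdh5 ran from -0.40 to 0.08 in Atgl KO/cTg, against -1.51 to -0.62 in wt/cTg. For the partners Kdr, Plvap, Tie1 and Vwf the differences were 0.35, 0.58, 0.70 and 0.21, all with overlapping groups, where 0.633%, 0.419%, 4.48% and 0% of all genes were higher without overlap. Ednrb gave 0 of 8 such partners. A difference between genes within a pool shows unequal change and does not say which of them moved.

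**Figure D3:**
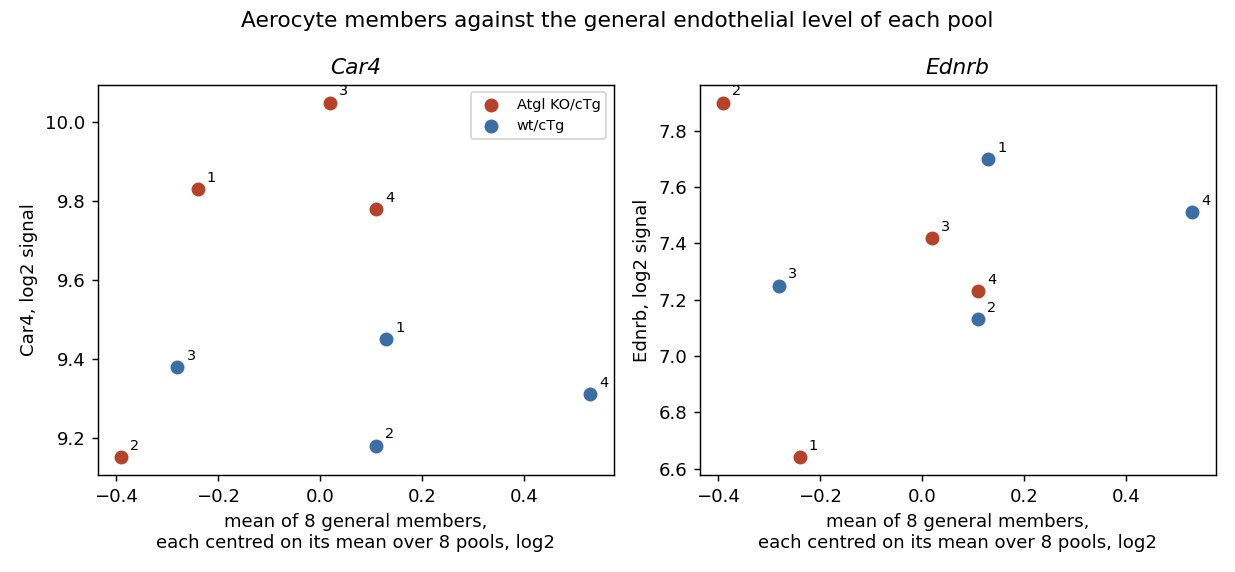
Log2 signal of Car4 (left) and Ednrb (right) against the mean of the 8 general members in the same pool, each general member centred on its mean over 8 pools; red points are Atgl KO/cTg pools, blue points wt/cTg pools, and numbers are replicates. The readings of 3 Atgl KO/cTg pools lie above all wt/cTg pools for Car4 whatever their general level, from -0.24 to 0.11, and r with the general level over the 8 pools is -0.02 for Car4 and 0.10 for Ednrb.

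The 28 pairs of general members had r of 0.15 to 0.96 over the 8 pools (median 0.73), and 2 sets among them are described here. Pearson's r for the 6 pairs of Pecam1, Cdh5, Calcrl and Tek was 0.87 to 0.96 (Spearman's rho 0.62 to 0.95), a description over pools in which all genes share the array. These sets were picked after the values were seen. Without the 2 pools farthest from the median of the first gene of each pair, r for these pairs was 0.27 to 0.87, and for all 6 pairs the pools left out were replicate 2 of Atgl KO/cTg and replicate 4 of wt/cTg. Kdr and Vwf gave r = 0.96 (rho 0.95) over 8 pools and 0.83 over 6. The 8 pairs between the sets gave r of 0.15 to 0.47 (rho 0.31 to 0.62) over 8 pools and 0.01 to 0.69 over 6, a range that overlaps that within the first set. Car4 had r = -0.02 with the mean of the general members (rho 0.02, and -0.11 over 6 pools). With each genotype centred on its own mean, that r was 0.35. By partner it was 0.67 with Cdh5, 0.67 with Calcrl, 0.52 with Tek and 0.44 with Pecam1. With the other partners it was 0.01 for Plvap, 0.01 for Tie1, -0.01 for Kdr and -0.09 for Vwf. Ednrb had r = 0.10 with the general mean (rho 0.02, and 0.58 over 6 pools; 0.04 with each genotype centred), and Car4 with Ednrb r = -0.44 (rho -0.38, and -0.33 over 6 pools).

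Of 13102 genes tested outside the members, those most like the mean of the general members over the 8 pools were Apbb2 (r = 0.986), Tgfb1i1 (0.985), Tmem47 (0.977), Lama3 (0.974) and Ptprb (0.973). Ptprb is the endothelial phosphatase VE-PTP, which acts on TIE2 and VE-cadherin. Those most like Car4 were Ddx42 (r = 0.958), Cyb5rl (0.932), B9d2 (0.904), Gpld1 (0.899) and Rnf10 (0.898), and those most like Ednrb were Fcgrt (0.959), Hk1 (0.958), Stambpl1 (0.953), Lmf2 (0.947) and Mrpl10 (0.945). The genes nearest to Car4 and Ednrb held no gene of the endothelial lists used here. With only 5 of 13102 genes taken for each, few list genes could appear, so this does not show which cells gave the signal.

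The wider endothelial lists had medians below 0 and no gene that passed. In a list of other pan-endothelial genes, 30 of 31 tested genes lay below 0, where 52.2% of all genes did, with a median of -0.30 and 0 called. The lowest was Tmem100 at -0.55 (limma adjusted p = 0.676) and the exception was Shank3 at 0.15. The list's mean level spanned 7.32 to 7.87 in Atgl KO/cTg pools, against 7.69 to 8.45 in wt/cTg pools, highest in wt/cTg replicate 4. With pools left out, this median became -0.18 without replicate 2 of Atgl KO/cTg, -0.12 without wt/cTg replicate 4 and -0.02 without both, where 17 of 31 genes lay below 0. Genes of general capillary cells gave 16 of 17 below 0 (median -0.17, and 9 of 17 below 0 without both end pools), from Gpihbp1, the capillary anchor of lipoprotein lipase, at -0.63 (limma adjusted p = 0.631) to Lpl, that lipase, at 0.14.

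In a list of genes reported for aerocytes, several of which other lung cells express too, 9 of 15 tested genes lay below 0 and 6 above. The median was -0.08, with 0 called, and 6 of 15 had an unadjusted limma p under 0.05, against 7.95% of all genes. Without both end pools 11 of 15 lay below 0 (median -0.09). The mean level of the list was 7.94 to 8.02 in Atgl KO/cTg, against 8.06 to 8.25 in wt/cTg. Its groups did not overlap and lay in the opposite order to Car4, and how often lists of this size do so was not tested. Groups did not overlap for 4 of the 15 genes, all lower in Atgl KO/cTg, where 2.62% of all genes did the same: Nrp1, Fibin, Emp2 and Tmeff2. Tmeff2 read 5.16, 5.23, 5.20 and 5.15 in Atgl KO/cTg, at the level filter of 5.18, against 5.29 to 5.52 in wt/cTg. Its place among the genes tested thus leaned on the group where it was high. Emp2 is also an alveolar type 1 gene. Nrp1, a co-receptor of VEGF, read 7.95, 8.08, 8.49 and 8.48 in Atgl KO/cTg, against 8.83, 8.98, 8.61 and 8.93 in wt/cTg, with a difference of -0.59 (SE 0.14, limma adjusted p = 0.285). Tbx2, a transcription factor of aerocytes named here after its values were seen, was at -0.39 (limma adjusted p = 0.547). Apln, the aerocyte ligand apelin, was at -0.05 (limma adjusted p = 0.973), and its receptor Aplnr, a general capillary gene, read 6.71 in each genotype. The highest of this list was Chst1 at 0.14.

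In the endothelin pathway 6 of 8 tested genes lay below 0 (median -0.09, 0 called), and 4 of 8 without both end pools (median 0.02). Edn1, the endothelin made by endothelial and airway epithelial cells and a ligand of Ednrb, read 6.42, 5.65, 7.03 and 6.47 in Atgl KO/cTg, against 7.09, 7.38, 7.17 and 7.66 in wt/cTg. All Atgl KO/cTg pools lay below all wt/cTg pools, as they did for 2.62% of all genes. Its lowest value was in Atgl KO/cTg replicate 2 and its highest in wt/cTg replicate 4, the end pools of the first principal component. The difference of -0.93 (SE 0.24) did not pass over all genes (limma adjusted p = 0.367). In the angiopoietin pathway 7 of 8 lay below 0 (median -0.24, 0 called), with the TIE2 ligand Angpt1 at -0.64 (SE 0.24, limma adjusted p = 0.531) and Angpt4 at 0.05. Angpt2, the ligand that endothelial cells release, read 4.81 to 5.11 in Atgl KO/cTg, against 5.27 to 5.70 in wt/cTg (mean difference -0.59). Its Atgl KO/cTg pools lay below the level filter of 5.18 and its wt/cTg pools above it, so it entered the test only through the group where it was high, and it is named after its values were seen.

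In the VEGF pathway 11 of 16 tested genes lay below 0 (median -0.12, 0 called), Nrp1 lowest and Plcg2 highest at 0.09. Vegfa, the main ligand of Kdr, was at -0.19 (limma adjusted p = 0.847). For the adrenomedullin and CGRP pathway of Calcrl, 3 of 6 lay below 0 (median -0.01, 0 called), with the receptor partner Ramp2 at -0.28 (SE 0.14, limma adjusted p = 0.655) and Ramp3 at 0.24. Other carbonic anhydrases lay mostly above 0, 6 of 7 (median 0.14, 0 called), with Car11 highest at 0.39 (limma adjusted p = 0.656). The exception was the cytosolic Car2, which read 6.28, 6.39, 6.86 and 6.52 in Atgl KO/cTg, against 6.91, 7.07, 6.93 and 7.61 in wt/cTg. The Car2 groups did not overlap, where 2.62% of all genes were lower in Atgl KO/cTg without overlap. Its difference was -0.62 (SE 0.18, limma adjusted p = 0.399).

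By vessel type, genes of arteries gave 10 of 12 below 0, where 52.2% of all genes were (median -0.12), from Hey1 at -0.22 to Jag1 at 0.23. The arterial median was 0.01 without replicate 4 of wt/cTg, with 6 of 12 below 0, and 0.04 without both end pools. Genes of veins and large vessels gave 5 of 9 (median -0.14), from Nr2f2 at -0.40 to Selp at 0.29, and their median was 0.06 with no level filter, 0.08 without replicate 4 of wt/cTg and 0.07 without both end pools. Lymphatic endothelial genes gave 7 of 7 (median -0.24), from Mmrn1 at -0.84 to Thy1 at -0.10, and 7 of 7 without both end pools. None of these genes passed over all genes, and 1 of 12, 2 of 9 and 1 of 7 had an unadjusted limma p under 0.05, against 7.95% of all genes. The lymphatic gene Prox1 lay below the level filter and was not tested. The pan-endothelial list shares Sox17 with the arterial list and Lyve1 with the lymphatic list, so these counts are not separate. Other lists share genes too, among them Flt1 and Nos3 (pan-endothelial and VEGF), Nrp1 (aerocyte and VEGF) and Cav1 (general capillary and alveolar type 1).

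**Figure D4:**
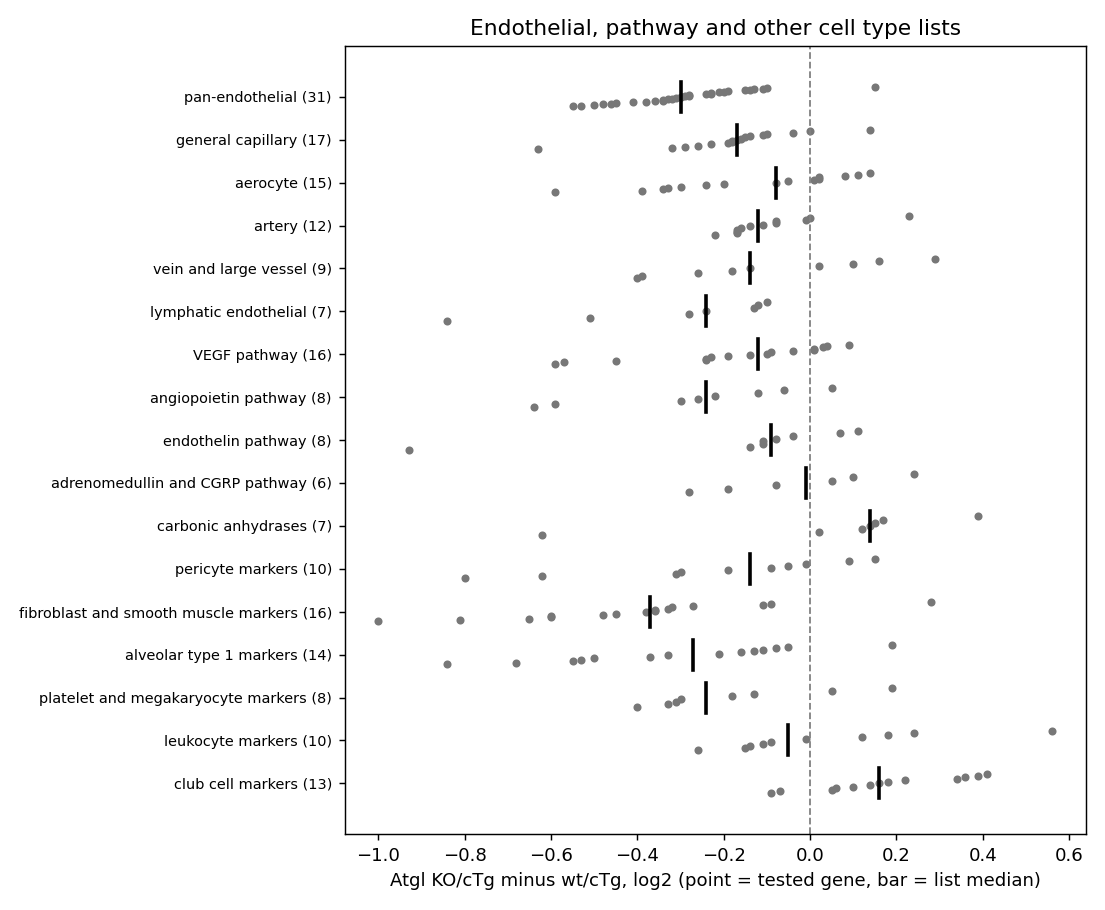
Difference of each tested gene (x axis, Atgl KO/cTg minus wt/cTg, log2) in lists of endothelial kinds, receptor pathways and other cell types; points are genes, bars are list medians and numbers in brackets are genes tested. The pan-endothelial, fibroblast and alveolar type 1 medians lie at -0.30, -0.37 and -0.27, while carbonic anhydrases and club cell markers lie at 0.14 and 0.16.

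Markers of 3 other kinds of lung cell varied across pools much as the general members did. Fibroblast and smooth muscle markers gave 15 of 16 below 0 (median -0.37) and a mean level of 7.67 to 8.12 in Atgl KO/cTg, against 8.08 to 8.46 in wt/cTg. Alveolar type 1 markers gave 13 of 14 below 0 (median -0.27), at 8.03 to 8.36 in Atgl KO/cTg, against 8.22 to 9.0 in wt/cTg. Pericyte markers gave 8 of 10 below 0 (median -0.14), at 6.20 to 6.87 in Atgl KO/cTg, against 6.55 to 6.96 in wt/cTg. Over the 8 pools the mean level of these lists had r = 0.84, 0.93 and 0.76 with the mean of the general members, and the pan-endothelial list r = 0.94 (rho 0.88, 0.95, 0.79 and 0.88 in the same order). In each of these 3 lists replicate 4 of wt/cTg was highest and replicate 2 of Atgl KO/cTg lowest, and without both the fibroblast, alveolar type 1 and pericyte medians were -0.23, -0.07 and -0.12, with 16 of 16, 8 of 14 and 7 of 10 below 0. Their part in the results on the members was not tested. Alveolar type 2 markers had r = 0.45 (rho 0.48). Of these, 5 of 15 genes were called lower in Atgl KO/cTg, where 0.0839% of all genes tested were. They were Lamp3, Hc, Etv5, Slc34a2 and Sftpc, from -1.53 to -0.41. The list was chosen with earlier results of these data known, so the 2 shares set side by side are no test of it. The count called was 0 without replicate 4 of wt/cTg, 7 without replicate 2 of Atgl KO/cTg and 2 without both.

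Blood cells carry Pecam1 and, in platelets, Vwf. Platelet markers gave 6 of 8 below 0 (median -0.24), at 6.25 to 6.92 in Atgl KO/cTg, against 6.76 to 6.90 in wt/cTg, with r = -0.11 (rho -0.21) against the general members. Their lowest pool was Atgl KO/cTg replicate 4, which had the highest Vwf, and the platelet median was -0.03 without that pool and -0.14 without replicate 1 of Atgl KO/cTg. Leukocyte markers gave 6 of 10 below 0 (median -0.05), at 8.81 to 9.29 in Atgl KO/cTg, against 8.77 to 9.30 in wt/cTg, with r = -0.67 (rho -0.38). Club cell markers gave 11 of 13 above 0 (median 0.16), at 10.84 to 10.98 in Atgl KO/cTg, against 10.60 to 10.84 in wt/cTg, lowest in wt/cTg replicate 4. Ciliated cell markers had a median of 0.20, mesothelial markers of 0.11 and genes that handle von Willebrand factor of -0.04, with 0 called.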

How the data were processed

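Total RNA (50 ng) went through a NuGEN whole-transcriptome amplification kit and carried a biotin label, per the labels' protocols. The values were used as deposited: a log2 signal for each of 41345 probe sets on every array, from 1.85 to 13.5, the log2 scale being read from the values. No source used here gives the software, background correction or normalization. No detection p-values or scan dates were used, so signal above background and batches could not be tested, and the number of arrays limits the precision.

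Groups came from the genotype label, and replicate numbers only name pools. Each replicate is a pool of mice, so p-values measure the spread between pools. Genes were named from probe sets with 1 symbol in the platform annotation, and of several the one with the highest mean was kept. Genes with a mean above the median of all probe sets (5.18) were tested with limma 3.58.1 in R 4.3.3 (lmFit, eBayes with a variance trend), two-sided, with Benjamini-Hochberg adjustment over 13112 genes and calls made at 0.05. A difference is the Atgl KO/cTg mean less the wt/cTg mean. Single members also had an exact permutation test over 70 arrangements of the arrays. Lists were described by counts and medians. The fit was tested on simulated data. Figures used matplotlib 3.10.9.

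The members and lists were chosen with earlier results of these data known. Named genes are the members, Pnpla2, the pool checks, the 5 genes most alike in pattern, and the extremes of each list. Others are given as named after their values were seen, or belong to counts of 5 or fewer. Apln, Aplnr, Vegfa and genes named without a value fall outside these rules. Of the erythroid list 1 gene was measured and 0 were tested. Alternatives were a level filter, the variance prior, normalization, array weights, probe sets, age, a sex score from Xist, Kdm5d, Eif2s3y and Uty, and pools left out. Car4 and Ednrb alone, lists without both end pools, and a block on sets assumed from mouse numbers were added after the data were seen.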

Additional observations from a re-analysis of the deposited data

Results flagged for a closer look

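Within groups of 4 pools, 3 of 30 groups of values had a pool far from the others by Dixon's criterion, which chance gives in about 1 of 20 groups. Vwf read 9.44 in Atgl KO/cTg replicate 4, against 8.86 to 8.95 in the other pools of that genotype, and Kdr read 9.48 in the same pool, against 9.26 to 9.30. In wt/cTg replicate 3 Vwf read 8.12, against 9.03 to 9.20 in the other wt/cTg pools. The platelet list was at its lowest in Atgl KO/cTg replicate 4 (6.25), and its part was not tested.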

How the results depend on the processing

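No member passed limma at an adjusted p of 0.05 in any of the 20 refits, and the lowest adjusted p was 0.0715, for Car4 without Atgl KO/cTg replicate 2. Over all genes, 13 were called in the reported fit, and the count was 7 with all genes kept and 7 with age in the fit, 1 without a variance trend or after quantile normalization, 23 with array weights, 8 without both end pools of the first principal component, and 1 to 25 when each pool was left out. Pecam1, Cdh5, Calcrl, Plvap, Tek, Tie1 and Car4 kept their sign in all 20 refits, but without both end pools Pecam1, Cdh5, Plvap and Tek were at -0.04, -0.06, -0.05 and -0.04, and Calcrl was at -0.20. Kdr was at -0.01 after median centring and ran from -0.06 to 0.06 when each pool was left out, Vwf from -0.09 to 0.27 and Ednrb from -0.30 to 0.12. With each pool left out, Pecam1 ran from -0.36 to -0.12, Cdh5 from -0.55 to -0.23, Calcrl from -0.57 to -0.33, Plvap from -0.39 to -0.09, Tek from -0.63 to -0.23, Tie1 from -0.49 to -0.19 and Car4 from 0.26 to 0.56. The mean of Car4 and Ednrb minus the general members was 0.46 with only 6 general members, 0.42 with Kdr left out, 0.62 for Car4 alone and 0.15 for Ednrb alone. The cause of these shifts was not tested. The labels do not say which pools form a set. With a replicate block on sets assumed from runs of mouse numbers in the titles, the last pair by remainder, 17 genes and 0 members were called, and Calcrl had a limma adjusted p of 0.192. With this block 5 members had an unadjusted limma p under 0.05, against 2 in the reported fit. The SE went from 0.26 to 0.14 for Tek and from 0.16 to 0.10 for Calcrl. It stayed at 0.09 for Kdr and 0.23 for Ednrb. Deviations from the group means had r of -0.08 to 0.11 within the assumed pairs, which cannot decide whether pools were prepared in sets. The unpaired fit was kept because no label gives the sets.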
